A study of Mus musculus with 6 samples.

Results

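Of 7959 transcript models counted in the chromatin-associated RNA of MEL cells, a mouse erythroleukemia line, 10 lay inside the annotated spans of 5 genes: Scn8a, Setd4, Ttc21b, Lama1 and Gm32035. A model is a stretch of genome, in 1 or more exons, that the authors assembled from reads, and it was assigned to a gene when at least 50% of its exon bases fell in the span. All 10 lay wholly inside their span, and 0 models overlapped a span by less. The 5 genes were chosen by their measured read counts, near 0 in the input chromatin and above 0 with both probes, so those levels are described below and not tested.

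The 6 libraries came from C57BL/6-labelled MEL cells fixed with formaldehyde, and each of the 3 groups had 2 libraries. Input was the chromatin before capture. TH59-DB was the chromatin pulled down with a pyrrole-imidazole polyamide directed at telomeres, and masked TH59-DB was the pull-down with the masked form of that probe, labelled as the negative control. All 3 groups share the same cell line, culture and fixation, and no label tells whether replicate libraries were grown apart, so the tests measure only the spread between these libraries, which may be technical. Of 15 erythroid marker genes 7 had a model, Zfpm1, Car1, Klf1, Epor, Nfe2, Gata1 and Car2, and the globin genes of the list had none. The level summed over all models of these genes ran from 837 to 1154 reads per 1000000 (CPM) in input. It ran from 503 to 1107 in masked TH59-DB and from 423 to 507 in TH59-DB. Models of the same gene may overlap, so a read may be counted more than once in these sums. Of 7 neuronal and 7 epithelial markers, 0 had a model. Of 6 markers of other blood cells 2 had a model, Laptm5 and Itga2b. The most abundant Laptm5 model had 32 and 74 input reads, and the Itga2b model had 9 and 16. Every model of the series had at least 5 reads in TH59-DB 1, so a gene without a model is not shown to be absent from the cells.

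Pyrrole-imidazole polyamides are synthetic ligands that lie in the minor groove of DNA and read its base pairs. When such a probe is used to isolate crosslinked chromatin, the RNA that comes along can be attached to the targeted region or held by the probe or the beads in other ways, and a masked probe serves to show the second kind. The 5 genes have no common pathway. Scn8a encodes a voltage-gated sodium channel of neurons, Setd4 a SET domain protein of the methyltransferase family, Ttc21b a subunit of the intraflagellar transport complex that carries cargo back from the tip of the cilium, and Lama1 an alpha chain of laminin in basement membranes. Gm32035 is annotated as a long non-coding RNA gene.

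The captured stretches were small parts of long genes. In build mm10 the Scn8a span covers chromosome 15 from 100869863 to 101045938, and its only model was 268 bases in 1 exon, from 100935304 to 100935571, at 37.2% of the span. The Lama1 span covers chromosome 17 from 67697127 to 67822645, and its 295-base model, from 67741287 to 67741581, stood at 35.3%. Gm32035 covers chromosome 4 from 93830417 to 93864235, and both its models began at 93844367, with centres at 41.5% and 41.6% of the span. Thus none of these 3 lay at an end of its gene's span.

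Setd4 covers chromosome 16 from 93583457 to 93604791 and held 3 models, the most of the 5 genes. They were 281 bases from 93596804 to 93597084, 1627 bases from 93597220 to 93598846, and 66 bases in 2 exons, from 93597927 to 93597985 and from 93599199 to 93599205. Ttc21b covers chromosome 2 from 66183787 to 66256674, and its models of 305 and 270 bases lay 5.28% and 7.36% along the span from its lower coordinate. That gene is on the minus strand, so its models lay toward the 3′ end, 67.1 and 67.3 kb downstream of the annotated start. Which of these stretches are exonic or intronic in the genes' own transcripts is not known here, because the annotation used gives gene spans only.

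**Figure D1:**
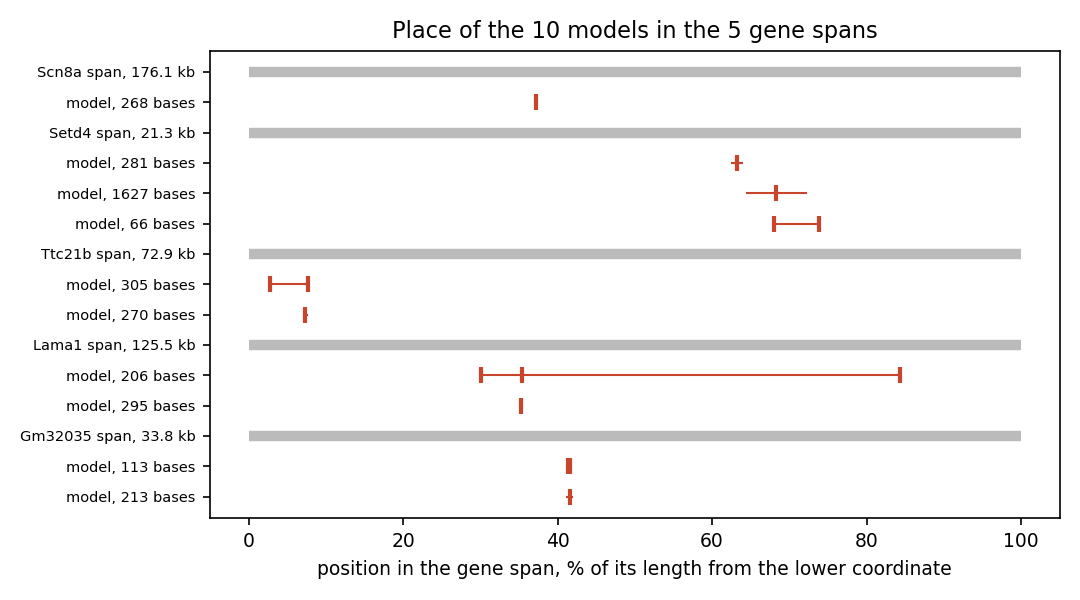
Place of the 10 models (red; ticks mark the centre of each exon, lines join the first and last base) in the spans of the 5 genes (grey bars), with position as a percentage of span length from the lower coordinate. The Lama1 model of 206 bases reaches over 3 exons, while the Scn8a, Gm32035 and other Lama1 models sit at a single point between 35.3% and 41.6% of the span.

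Of the 10 models, 6 had 1 exon and carried no strand, and 4 had 2 or 3 exons. The second Lama1 model, 206 bases long, had exons of 7, 189 and 10 bases spread over 68229 bases of the gene, and the 305-base Ttc21b model had exons of 7 and 298 bases. In Setd4 the second exon of the 66-base model was 7 bases long. These short end exons hold few bases, and nearly all bases of each model lay in its main exon.

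The nearest sequence at hand to any member is a second annotated start of Scn8a inside the gene, on the plus strand at 100936271, which lies 700 bases downstream of the end of the 268-base model. It is shown because the only Scn8a reads came from just before it, although the model itself is outside the window. The RefSeq window of build GRCm38.p6, chr15:100936021-100936320, runs 5′ to 3′ as follows, with capitals marking a match to the telomere repeat unit TTAGGG, searched on both strands (TTAGGG or CCCTAA).
Scn8a second start: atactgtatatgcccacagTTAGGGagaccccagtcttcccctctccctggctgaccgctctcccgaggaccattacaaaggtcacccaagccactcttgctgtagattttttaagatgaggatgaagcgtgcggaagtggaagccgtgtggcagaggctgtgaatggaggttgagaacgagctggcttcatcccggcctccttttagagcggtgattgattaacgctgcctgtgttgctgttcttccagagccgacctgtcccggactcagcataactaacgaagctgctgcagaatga
This window has 1 match, and 10.6% of 32851 such windows in the mouse annotation hold at least 1. The first Scn8a start and the Setd4 start had 0 matches and the Ttc21b start had 2, and a match is a description of letters only.

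The input held almost none of this RNA. Over both input libraries together the leading model of each gene, meaning the one with the most capture reads, had 1 read at Scn8a, 7 at Setd4, 1 at Ttc21b, 2 at Lama1 and 3 at Gm32035. A single read was worth 0.335 CPM in input 1 and 0.350 CPM in input 2. At this depth the input levels are known only to within a few reads, and ratios to the input are correspondingly loose.

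At Scn8a the 268-base model had 0 and 0.350 CPM in the 2 input libraries, 73.1 and 86.8 CPM with the masked probe, and 84.8 and 161 CPM with TH59-DB. Masked TH59-DB 2 exceeded TH59-DB 1, so the captures overlapped while both stood far above the input. The mean was 79.9 CPM ± 9.70 in masked TH59-DB and 123 CPM ± 54.2 in TH59-DB (SD, n = 2 each).

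The 305-base Ttc21b model had 0.335 and 0 CPM in input, 38.1 and 27.9 CPM with the masked probe, and 42.7 and 35.5 CPM with TH59-DB. The 270-base model had 35.5 and 26.6 CPM with the masked probe, and 38.3 and 27.0 CPM with TH59-DB. The captures overlapped for both models, and in each capture library number 1 was the higher.

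At Setd4 the 1627-base model had 1.34 and 1.05 CPM in input, 262 and 351 CPM with the masked probe, and 1761 and 2719 CPM with TH59-DB. The captures did not overlap there. The 66-base model was close to it in every library, with 262 and 349 CPM with the masked probe, and 1689 and 2422 CPM with TH59-DB. The 281-base model did not share the pattern of the group. It had 0 and 4 input reads, 0 and 1 masked reads, and 13 and 16 reads with TH59-DB, so at this gene only the other 2 models had more than 1 read in a masked library.

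The 295-base Lama1 model had 0.670 and 0 CPM in input, 321 and 388 CPM with the masked probe, and 1124 and 3754 CPM with TH59-DB. The masked libraries were close to each other, whereas the TH59-DB libraries differed by more than their lower value. The 206-base model differed from it by at most 7 reads in any library.

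At Gm32035 the 213-base model had 0.670 and 0.350 CPM in input, 56.3 and 82.3 CPM with the masked probe, and 628 and 932 CPM with TH59-DB. The 113-base model nested in it had exactly the same reads in all 6 libraries. Both TH59-DB libraries lay well above both masked libraries, which in turn lay above the input.

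**Figure D2:**
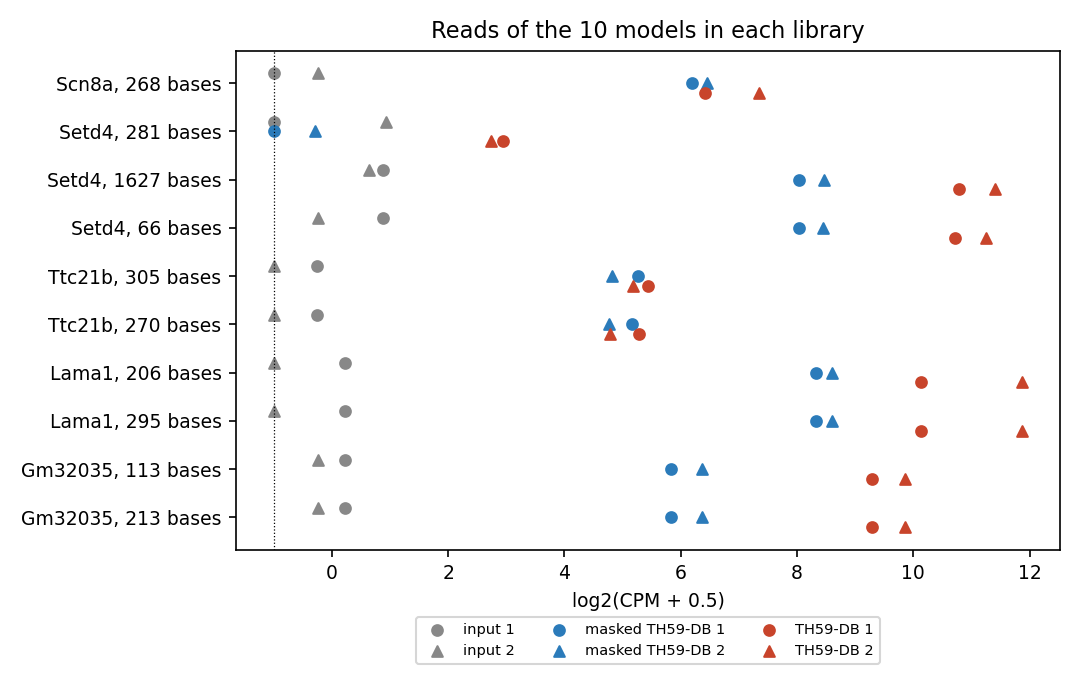
Level of each model in each library as log2(CPM + 0.5), with input in grey, masked TH59-DB in blue and TH59-DB in red, circles for library 1 and triangles for library 2; the dotted line marks 0 reads. All input points lie at or below 1.40 CPM, and the 2 captures separate at Setd4, Lama1 and Gm32035 but overlap at Scn8a and Ttc21b.

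As a description of what the choice of genes used, the masked capture stood above the input by a ratio of mean CPM of 456 at Scn8a, 257 at Setd4, 197 at Ttc21b, 1059 at Lama1 and 136 at Gm32035. The 95% exact counting intervals of the pooled reads were wide, from 32.9 to 7382 at Ttc21b and from 128 to 658 at Setd4. These intervals cover counting error only, since they pool the 2 libraries of a group and leave out the spread between libraries. The reads also carry no molecular identifiers. The 281-base Setd4 model, with 1 masked read against 4 input reads, had a pooled ratio of 0.287 (0.00582 to 2.90).

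Levels between genes were compared per kilobase of model. In masked TH59-DB the leading models had 1203 CPM per kb ± 161 at Lama1, 325 ± 86.3 at Gm32035, 298 ± 36.2 at Scn8a, 188 ± 38.5 at Setd4 and 108 ± 23.6 at Ttc21b (SD, n = 2). Gm32035 and Scn8a overlapped in this order, and the other neighbours did not. In TH59-DB the levels were 8268 CPM per kb ± 6305 at Lama1, 3662 ± 1012 at Gm32035, 1377 ± 416 at Setd4, 459 ± 202 at Scn8a and 128 ± 16.6 at Ttc21b. Lama1 and Gm32035 overlapped there, and Setd4 stood above Scn8a, the reverse of their order with the masked probe. The place of Setd4 depends on which of its models is used, since the 66-base model had 4634 CPM per kb ± 933 in masked TH59-DB and 31144 ± 7847 in TH59-DB, above all other members in both.

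At 4 of the 6 loci a pair of models overlapped, and the shorter model's count, as a share of the longer one's, exceeded the share of the longer model's bases that both held. The 66-base Setd4 model shares 59 bases with the 1627-base model, which is 3.63% of the latter's length, yet its count was 100% and 99.5% of the longer model's in the masked libraries and 95.9% and 89.1% in the TH59-DB libraries. At Gm32035 the shared 113 bases are 53.1% of the longer model, and the counts were equal. At Lama1 the shared 189 bases are 64.1% of the 295-base model, and the shorter model's count was 99.4% to 100% of the longer model's in the 4 captures. At Ttc21b the models share 73 bases, 23.9% of the longer, and the share of counts was 93.3% and 95.4% with the masked probe, then 89.6% and 76.1% with TH59-DB. How reads in shared bases were counted is not given in the sources used here, and the 10 models are 6 separate loci, not 10 independent measurements. Across the series 7 overlapping pairs shared at most 10% of the longer model and had at least 100 capture reads, and in 3 of them the shorter had over 80% of the longer one's capture reads.

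Setting the telomere-directed probe against its masked control asks whether it brought down more of these RNAs. The ratio of mean CPM fell into 2 sets. It was 7.30 at Setd4 (1627 bases), 6.87 at Lama1 and 11.3 at Gm32035, and 1.54 at Scn8a and 1.19 at Ttc21b (305 bases). The 95% exact counting intervals of the pooled ratio were 6.97 to 7.74, 7.02 to 7.75 and 10.0 to 12.5 for the first 3, 1.40 to 1.81 for Scn8a and 0.969 to 1.51 for Ttc21b. These intervals leave out the spread between libraries, so they do not give the precision of the difference between captures. The Lama1 interval holds neither the ratio of the first libraries, 3.50, nor that of the second, 9.66.

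Taken by library number, the ratio at Gm32035 was 11.1 between the first libraries and 11.3 between the second. The values at Setd4 were 6.71 and 7.75, also near each other. At Lama1 they were 3.50 and 9.66, so the size of that difference rests on which TH59-DB library is read. For Scn8a the ratios were 1.16 and 1.86, and for the 305-base Ttc21b model 1.12 and 1.28. All 10 of these values were above 1, and the numbers give no pairing of cultures.

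None of the 10 models passed the test. In edgeR's quasi-likelihood fit of all 6 libraries, with Benjamini-Hochberg adjustment over the 5385 models tested, 0 of 10 had an adjusted p under 0.05, against 76 models or 1.41% of all tested, every one of them higher in TH59-DB. Every model of the series had at least 5 reads in TH59-DB 1, and 4341 of 7959 had none in masked TH59-DB 1. The share called and its direction belong to a list limited in this way. Gm32035 came closest, with a log2 ratio, as fitted, of 3.89 (SE 0.89, adjusted p = 0.0652, edgeR). Setd4 followed with 3.26 (SE 0.96, adjusted p = 0.172, edgeR) for the 1627-base model and 3.12 (SE 1.00, adjusted p = 0.220) for the 66-base model. The Lama1 models of 295 and 206 bases had 3.29 and 3.30 (SE 1.18 and adjusted p = 0.300 for each, edgeR).

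The remaining 4 models had adjusted p-values of 0.413 or more. The low-count Setd4 model of 281 bases had a log2 ratio, as fitted, of 5.19 (SE 2.16, adjusted p = 0.413, edgeR), with its size set by 1 masked read in all. Scn8a had 1.04 (SE 0.75, adjusted p = 0.829, edgeR). The Ttc21b models had 0.42 and 0.21 (SE 0.73 each, adjusted p = 0.964 and 0.979, edgeR), on either side of the median of 0.30 over all tested models. These values do not show that Scn8a and Ttc21b are captured alike by both probes, since an SE of 0.73 to 0.75 leaves room for larger differences.

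At an unadjusted p under 0.05, 7 of the 10 models were higher in TH59-DB, against 8.26% of all tested models. The same 7 had both TH59-DB libraries above both masked libraries, which held for 16.1% of all tested models. They stand at 4 loci, 2 of them in Setd4, and the members were chosen to have reads in both captures, so neither count is independent evidence. Both shares of all tested models are of a list in which every model had at least 5 reads in TH59-DB 1. With 2 libraries against 2, an exact permutation test of a single model cannot give a two-sided p below 0.333. The median log2 fold change of the 10 models was 3.27.

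Single libraries and tools moved these values and calls. DESeq2 called the 6 models of Gm32035, Lama1 and the main Setd4 locus, against 236 of 5644 tested models, all higher in TH59-DB. Its adjusted p was 1.01e-06 for Gm32035, 5.84e-05 for the 1627-base Setd4 model and 0.00156 for the 295-base Lama1 model. Without TH59-DB 2 the log2 fold change was 1.23 at the 295-base Lama1 model, 2.09 at the 1627-base Setd4 model and 2.76 at Gm32035. In that setting it turned to -0.35 at Scn8a and to -0.11 and -0.18 at the Ttc21b models. Without masked TH59-DB 2 the Ttc21b values were -0.30 and -0.52, so no direction is given for Ttc21b or Scn8a. Without TH59-DB 1 the log2 fold change was 4.58 at Gm32035 and 3.95 at the 1627-base Setd4 model. At the 281-base Setd4 model it was 7.11 without masked TH59-DB 2, against 1 masked library with 0 reads of it. The median log2 fold change over all tested models was 5.10 in that setting. Each of these fits compares an arm of 1 library, which is assumed to vary like the libraries of the other groups. With all libraries kept, edgeR called Gm32035 with RLE factors (adjusted p = 0.0290), with no factors (0.00780) and without the read filter (0.0313). It also did so with a replicate block (0.00148) and with sums of model counts as library sizes (0.0359), the last chosen after the data were seen. Over all tested models, RLE factors called 167 of 5385, no factors 153 higher and 2 lower of 5385, and no filter 204 and 2 of 7959. The replicate block called 186 and 5 of 5385, and the sums 155 of 5498.

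**Figure D3:**
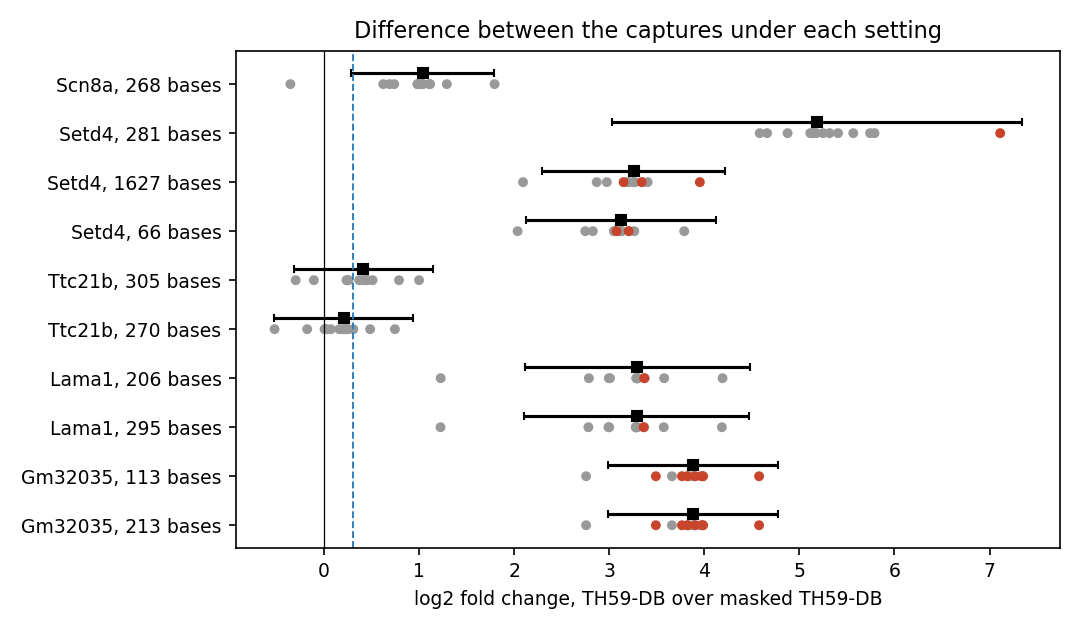
Log2 fold change of TH59-DB over masked TH59-DB for each model; black squares with bars are the edgeR fit and its SE, and dots are the 14 alternative settings, red where the adjusted p was under 0.05. The dashed line is the median of all tested models, 0.30. All values of Setd4, Lama1 and Gm32035 lie to the right of that line and those of Scn8a and Ttc21b fall on both sides of 0, but the median differs by setting and is 5.10 without masked TH59-DB 2, above Lama1, Gm32035 and the larger Setd4 locus there.

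The proportions among the 5 loci within a library need no scaling between libraries. In the masked libraries the leading models of Scn8a and Ttc21b made up 14.8% and 12.2% of the reads of the 5 leading models, which numbered 1480 and 2924. In the TH59-DB libraries they made up 3.50% and 2.59% of 6566 and 19683 reads. The masked and TH59-DB libraries did not overlap in this share. This pair is the set with the lower ratios above, and the shares use the same reads. Neither the shares nor the read ratios below are therefore separate evidence.

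Read by read, Lama1 had 4.40 and 4.48 reads for each Scn8a read in the masked libraries and 13.2 and 23.3 in the TH59-DB libraries. Setd4 had 3.59 and 4.04 reads for each Scn8a read with the masked probe and 20.8 and 16.8 with TH59-DB, and Gm32035 had 0.771 and 0.948 against 7.40 and 5.78. All 3 ratios were higher in both TH59-DB libraries than in either masked library. Between Setd4 and Lama1 the ratio of reads was 0.817 and 0.904 in the masked libraries and 1.57 and 0.724 in TH59-DB, which overlapped. The reads of Scn8a over those of Lama1 differed 1.02-fold between the masked libraries and 1.76-fold between the TH59-DB libraries.

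**Figure D4:**
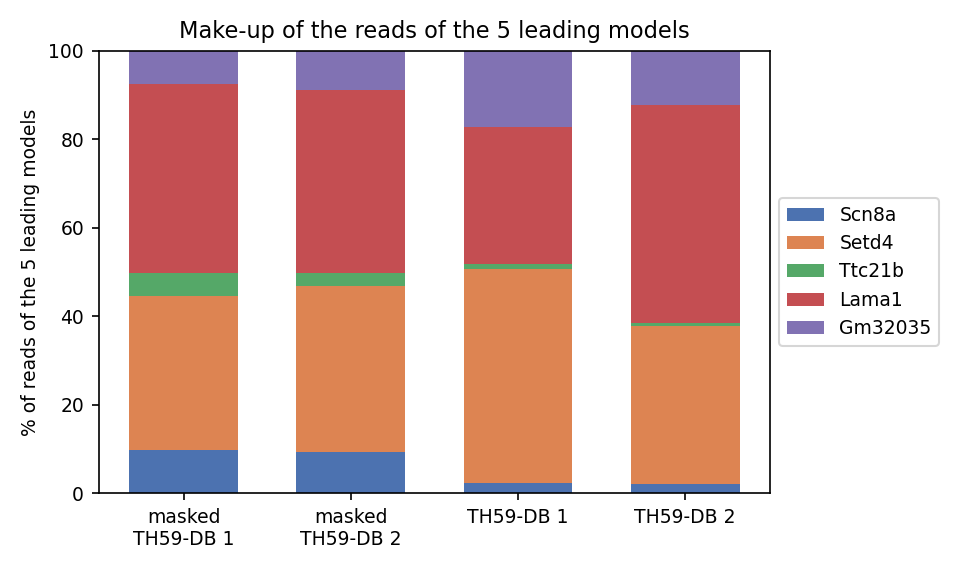
Share of each gene's leading model in the reads of the 5 leading models, in percent, for the 4 capture libraries. Scn8a and Ttc21b take 12.2% to 14.8% in masked TH59-DB and 2.59% to 3.50% in TH59-DB, and Lama1 and Setd4 exchange places between the TH59-DB libraries.

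The pattern was not confined to these genes. Over the series, 106 models at 88 loci had at most 3 reads in each input library and at least 5 in each of the 4 captures, 1.33% of all models. Every model of the series had at least 5 reads in TH59-DB 1, so the capture limit selected only in the other capture libraries. Of the members 7 met these limits, and the 3 Setd4 models did not. Of the 106, 53 lay in a gene span (50%, against 86.0% of all models).

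Among the 99 other models of the class the ratio of TH59-DB to masked CPM had a median of 10.2, with quartiles of 3.30 and 25.5. The Gm32035 ratio exceeded 52.5% of them and the 1627-base Setd4 and 295-base Lama1 ratios 42.4% and 41.4%. Scn8a exceeded 14.1% and the 305-base Ttc21b model 11.1%, so these last stood among the class members captured most evenly by both probes. In masked level, by contrast, only 4 of the 99 exceeded the 295-base Lama1 model and 9 exceeded Scn8a.

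**Figure D5:**
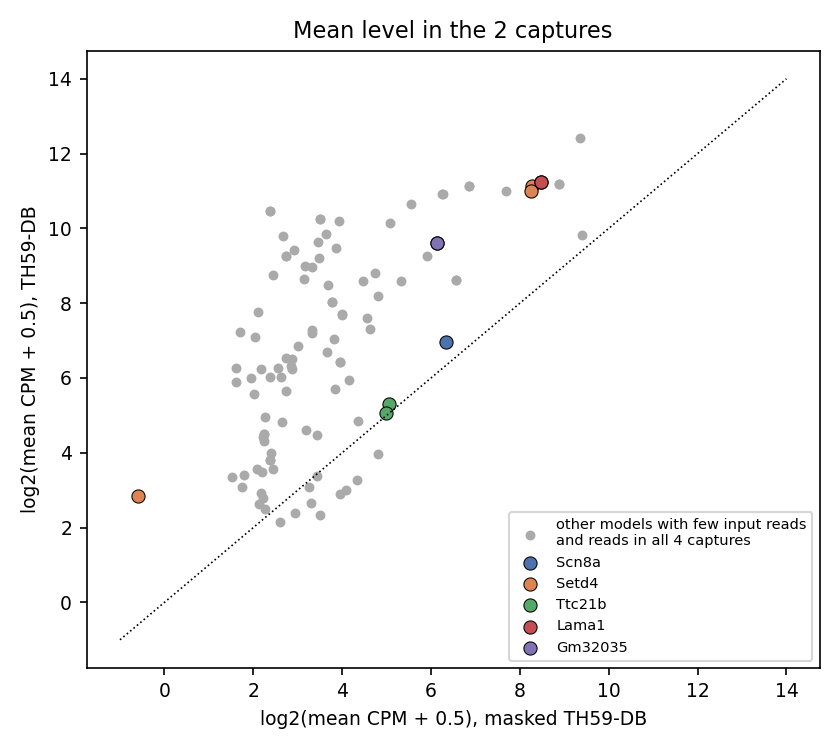
Mean level in TH59-DB against mean level in masked TH59-DB, both as log2(mean CPM + 0.5), for the 10 models (coloured by gene) and 99 other models with at most 3 reads per input library and at least 5 per capture library (grey). The dotted line marks equal levels. Ttc21b lies next to it, Scn8a slightly above it, and Setd4, Lama1 and Gm32035 farther above it. All but the 281-base Setd4 model lie inside the spread of the grey points. That model, with a mean of 0.160 CPM in masked TH59-DB, lies to the left of them.

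The profile of each leading model over the 6 libraries was set against all other models. The profiles compared were log2(CPM + 0.5) values, and 3 models were named per gene from 6644 candidates. Of these candidates, 24 reached an r of at least 0.95 for Scn8a, 24 for Ttc21b, 53 for Lama1, 74 for Setd4 and 86 for Gm32035. With 6 libraries in 3 groups each r rests on few values, and the closest models were picked from many. A 53-base model on chromosome 10, from 109396053 to 109422780, came first for both Scn8a (r = 0.992) and Ttc21b (r = 0.997). It had 703 and 650 CPM with the masked probe, and 884 and 942 CPM with TH59-DB. For Scn8a, Sgms1 followed (r = 0.990), then a 55-base model from 46225733 on chromosome 2 (r = 0.989), and for Ttc21b, Cux1 (r = 0.992) and a model from 6384107 on chromosome 10 (r = 0.983).

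For Lama1 the closest model lay on chromosome 13 from 116192889 to 116193000, in no gene span (r = 0.998). It had 662 and 637 CPM with the masked probe, and 1760 and 9097 CPM with TH59-DB, with the same low first and high second TH59-DB library as Lama1. The next were 2 overlapping models on chromosome 2, from 46225730 and from 46225733 (r = 0.996 each). Setd4 was closest to a pair of Nol4 models with the same reads (r = 0.999 each) and to a model on chromosome 8 from 71433020 (r = 0.998). For Gm32035 the 3 were models in no gene span on chromosomes Y, from 140526 (r = 0.999), 6, from 146531179 (r = 0.997), and 7, from 131901705 (r = 0.996). Among the 5 leading models themselves r ran from 0.940, between Ttc21b and Gm32035, to 0.995, between Setd4 and Lama1 and between Setd4 and Gm32035. The 5 genes were chosen for few input reads and reads with both probes, so high values here follow from that choice.

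Distances to chromosome ends differed widely. From the outermost annotated gene or model at the distal end, taken as the mark of that end, Scn8a lay 3.01 Mb away, Setd4 4.51 Mb, Lama1 27.1 Mb, Gm32035 62.5 Mb and Ttc21b 116 Mb. On the centromere side the nearest distance was 63.1 Mb, at Ttc21b.

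Within 1 Mb of the spans, 0 of 9 other models around Scn8a, 0 of 30 around Setd4 and 0 of 1 around Gm32035 had few input reads and reads in all captures, and Ttc21b had 0 other models. The pattern was held by 1.33% of all models, so counts of 0 among so few do not set these surroundings apart. Around Lama1 the 2 other models within 1 Mb had the pattern, and they form 1 locus, with the same start and the same mean CPM in every group. The nearer was a 63-base model in Ptprm, a receptor-type tyrosine phosphatase gene, 894 kb below the Lama1 span. It had 1.00 and 0 CPM in input, 190 and 41.3 CPM with the masked probe, and 2104 and 2399 CPM with TH59-DB (log2 fold change 4.39, adjusted p = 0.173, edgeR). The nearest model below Gm32035, 3104 kb away, had 1 masked read in all and 35 and 308 reads in TH59-DB (adjusted p = 0.0388, edgeR).

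Other nearest neighbours were thinly read. Tfcp2, 349 kb below Scn8a, had 3 and 7 input reads, 0 and 11 masked reads, and 13 and 1 reads with TH59-DB. Runx1, a blood cell transcription factor gene 758 kb below Setd4, had 6 and 9 input reads, 8 and 25 masked reads, and 11 and 10 reads with TH59-DB (log2 fold change -0.05, adjusted p = 0.996, edgeR).

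Related genes were counted from lists of their families. Of 13 other voltage-gated sodium channel genes, 0 had a model. Of 6 partners of the channel, Nedd4l and Fgf14 had a model and 1 was tested; of the 4 models in Nedd4l, a ubiquitin ligase gene, the most abundant rose in TH59-DB, with 0 reads in both masked libraries and 147 and 229 in TH59-DB (adjusted p = 0.0148, edgeR). Of 28 intraflagellar transport genes 2 had a model, Ift43 and Traf3ip1, with 0 reads in input and masked TH59-DB, and neither was tested. In TH59-DB 1 and 2, Ift43 had 23 and 0 reads and Traf3ip1 had 15 and 5.

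Of 22 laminin and basement membrane genes 4 had a model, 2 were tested and 0 passed. The most abundant of 3 models in Lamc1, a gamma chain of laminin, had 19 and 63 input reads, 6 and 50 masked reads, and 30 and 13 reads with TH59-DB, so unlike Lama1 it was present in the input. Of 33 SET domain methyltransferase genes 26 had a model, 23 were tested and 0 passed in either direction, with a median log2 fold change of -0.08. Over all tested models 1.41% were called, so counts of 0 among so few genes do not set these families apart. The highest mean CPM was that of a Kmt2d model, a histone methyltransferase gene, with 58.6 and 106 CPM in input, 65.5 and 95.8 CPM with the masked probe, and 60.4 and 36.7 CPM with TH59-DB. In none of these lists did a gene have a model with few input reads and reads in all 4 captures, a pattern held by 1.33% of all models.

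Facts of the libraries bear on these values. Totals ran from 1803723 to 3122558 reads. Masked TH59-DB 1 had 4341 of 7959 models without a read, while the 4 libraries other than this one and TH59-DB 1 had 1404 to 1884 such models. The lowest count in TH59-DB 1 was 5. How the authors chose the models is not given in the sources used here. With the sum of model counts as denominator in place of the library total, capture levels of the members were 1.82 to 2.55 times higher. Their part in the results was not tested.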

How the data were processed

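RNA from input, masked TH59-DB and TH59-DB chromatin was sequenced in 6 libraries, made with a stranded total RNA kit per the labels' protocols. The deposited files give whole-number counts of reads per assembled model, and FPKM values that the authors computed from the count, the model length and a library total, per the file headers and values. The submitters' processing notes name cutadapt, HISAT2, Cufflinks and featureCounts and the build mm10; their roles, settings and strand handling are not given in the sources used here. Models without reads carry the deposited FPKM of a single read, apart from masked TH59-DB 1 where they carry 0, so only counts were analysed, and CPM used the totals recovered from FPKM. The files of numbers 1 and 2 were joined on chromosome, starts and ends for 7695 models and on chromosome, first start and length for 264. Only 1 library of each group has a number, 2, in its label, and the other was called 1.

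Genes came from the RefSeq table of GRCm38.p6 (mm10 coordinates). Counts were tested with edgeR 4.0.16 in R 4.3.3 (filterByExpr, TMM, robust glmQLFit, two-sided glmQLFTest; biological coefficient of variation 0.702), with library totals as library sizes; the SE is that implied by the F statistic. DESeq2 1.42.0 was an alternative. All members are given; the 3 most similar models per gene, the nearest models and up to 4 genes per family list were named by rule. Members, lists and rules were chosen with earlier results of these data known. Same-numbered libraries were not treated as pairs, because their deviations correlated at 0.129, 0.0885 and -0.00786. One gene of the erythroid marker list is not reported here.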

Additional observations from a re-analysis of the deposited data

How the results depend on the processing

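Of 140 values for the 10 models under 14 alternatives, 113 kept their direction and stayed outside the threshold, 22 passed and 5 turned sign. The 5 were Scn8a (-0.35) and the Ttc21b models (-0.11 and -0.18) without TH59-DB 2, and the Ttc21b models (-0.30 and -0.52) without masked TH59-DB 2. With 1 library left out, the log2 fold change ran from -0.35 to 1.79 at Scn8a, from -0.30 to 1.00 and from -0.52 to 0.75 at the Ttc21b models of 305 and 270 bases, and stayed at 1.23 or higher at the other 7. The count of members passing, 0 as reported, was 6 with DESeq2, 4 with the replicate block (Gm32035, adjusted p = 0.00148, and the main Setd4 locus), and 2, both of Gm32035, with RLE factors, with library totals and no factors, without the read filter, or with sums of model counts as library sizes (added after the data were seen). With 1 library left out it ran from 0 to 3. It stayed at 0 without the 2 largest models and with only the 4 capture libraries fitted. Over all models the 76 calls of 5385 tested became 236 of 5644 with DESeq2 and 167 of 5385 with RLE factors. They became 153 higher and 2 lower of 5385 with no factors, and 155 of 5498 with sums of model counts. They were 204 and 2 of 7959 without the filter, 129 of 4863 with the captures only and 186 and 5 of 5385 with the replicate block. Without masked TH59-DB 2 the median log2 fold change of all models tested was 5.10. The median was 0.30 as reported, 0.51 with RLE factors, 0.08 with no factors and 1.43 with DESeq2. The class of 106 models numbered 139 with at least 3 capture reads and 65 with at least 10. It numbered 74 with at most 1 input read and 139 with at most 5. The 10 members were the same number at any span overlap or at 90%. The causes were not tested. With input counts of 0 to 4 reads, depth limits every ratio to the input.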
